A study of Mus musculus with 11 samples.

Results

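Bcl11a was followed here through 4 transcripts, uc007ifu.2 (Bcl11a-201), uc007ift.3 (Bcl11a-203), uc007ifs.2 (Bcl11a-204) and uc007ifw.2 (Bcl11a-202), which are 4 of the 63244 transcripts in the count table. The gene was chosen from the measured comparison of sleep deprived with non-sleep deprived mice, in which the study called Bcl11a-201 differentially expressed. All values of that comparison below, including the shares derived from it, are therefore a description and carry no test. Each of the 4 names was matched to its row by the statistics that the study lists for it, through a fit other than the one used below. All 4 transcripts passed the filter on low counts, which asked for 1 count or more in 5 or more libraries and kept 29599 transcripts.

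The libraries hold RNA bound to ribosomes in hippocampal neurons of male CaMKII-Cre:Ribotag mice aged 2-3 months. In these mice the Cre recombinase is driven by the CaMKIIα promoter, which is active in excitatory neurons of the forebrain, and switches on an HA-tagged form of the ribosomal protein Rpl22, so that the tagged ribosomes and their mRNA can be pulled down from the homogenate of the whole hippocampus. The 6 sleep deprived (SD) libraries came from mice kept awake for 5 h from lights on by tapping and shaking the cage. The 5 non-sleep deprived (NSD) libraries came from mice of the same line killed at the same time. Before the experiment, animals had been single housed and handled with cage taps and shakes. Each library pooled 2 mice, and both groups carry the Cre and the tagged allele.

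Bcl11a encodes a zinc finger transcription factor that binds DNA and recruits repressor complexes, among them NuRD and the LSD1 (Kdm1a) complex, and it was also found as a subunit of the neuronal BAF chromatin remodelling complex. It is best known for silencing fetal globin genes in red blood cells. In the forebrain it takes part in the specification, migration and branching of projection neurons, and its paralog Bcl11b has related roles in deep-layer cortical neurons and in the dentate gyrus.

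Bcl11a lies on chr11:24078056-24174123 of mm10, on the plus strand, and GENCODE vM21 gives it 6 transcripts. The 4 transcripts of the table are its protein-coding ones, and they part in exon 1, at the end of exon 4 and where exon 5 ends. The 60 coding bases around the parting points in exon 4 of GENCODE are shown because they decide which zinc fingers the encoded protein has. In each line the last 30 bases of the stretch shared up to that point are in lower case and the 30 bases that follow in that transcript are in capitals, 5′ to 3′.

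Bcl11a-203 and Bcl11a-204, exon 4 to exon 5, chr11:24163259-24163288 and chr11:24172699-24172728: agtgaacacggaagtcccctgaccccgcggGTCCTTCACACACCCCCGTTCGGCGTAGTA
Bcl11a-201 and Bcl11a-202, exon 4 read on, chr11:24163259-24163318: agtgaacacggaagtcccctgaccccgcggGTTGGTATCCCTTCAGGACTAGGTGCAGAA
Bcl11a-201, exon 4 to exon 5, chr11:24164859-24164888 and chr11:24172699-24172728: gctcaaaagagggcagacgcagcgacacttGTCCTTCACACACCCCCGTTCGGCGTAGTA
Bcl11a-202, exon 4 read on, chr11:24164859-24164918: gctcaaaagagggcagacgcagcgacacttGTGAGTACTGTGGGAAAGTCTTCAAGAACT

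Exon 4 starts at 24163146 in all 4 transcripts and ends at 24163288 in Bcl11a-203 and Bcl11a-204, at 24164888 in Bcl11a-201 and at 24168429 in Bcl11a-202, which has no exon 5. Bcl11a-202 encodes 835 residues with 6 matches to the C2H2 zinc finger pattern. Bcl11a-201 encodes 773 residues with 3 matches, and Bcl11a-203 243 residues with 1 match. Bcl11a-204 encodes 191 residues with 1 match, because it has another first exon and its reading starts within exon 2, 52 residues after the start that the other 3 use. Exon 5 begins in another reading frame in Bcl11a-201 (phase 2 in the annotation) than in Bcl11a-203 and Bcl11a-204 (phase 0). The longer coding forms thus carry the fingers encoded in the extended exon 4, and the shorter ones lack them.

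**Figure D1:**
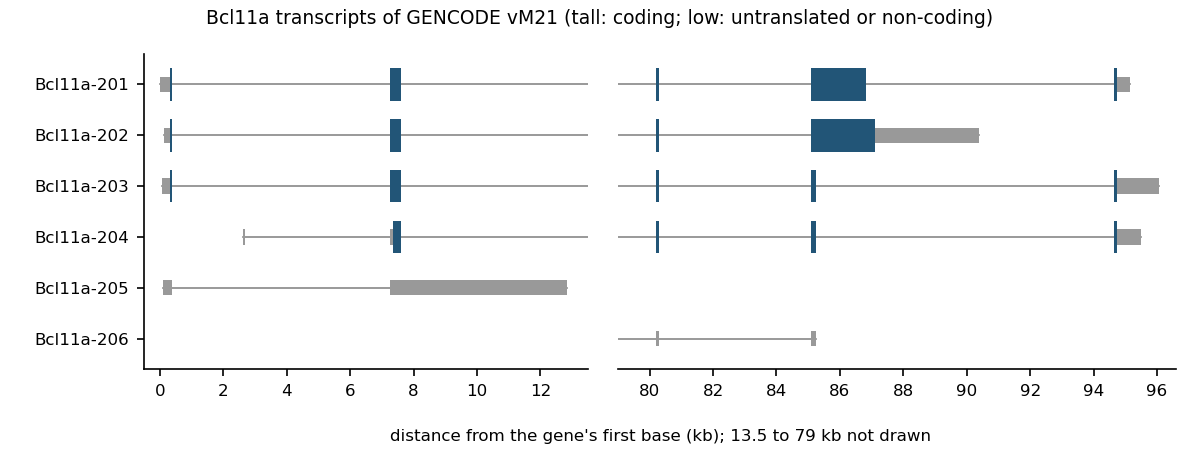
Exon structure of the GENCODE transcripts of Bcl11a, drawn to scale in kb from the first base of the gene, with coding parts as tall and other exonic parts as low boxes, and with the middle of the intron before exon 3, which holds the first exon of Bcl11a-206, left out. The 4 protein-coding transcripts share exons 2 and 3 and differ in the first exon and in where exons 4 and 5 end.

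In the counting mode of the study, a read enters a row only where it can be assigned to that transcript alone by a base or a splice junction that sets it apart, and a read that several transcripts share along its whole length goes to the tally of ambiguous reads. Bcl11a-202 has 3541 exonic bases in no other Bcl11a transcript of GENCODE, Bcl11a-203 has 565, Bcl11a-204 has 70 and Bcl11a-201 has 61. The mean count per library ran otherwise, with 2350 for Bcl11a-203, 525 for Bcl11a-204, 192 for Bcl11a-201 and 62.6 for Bcl11a-202. The junction from the later end of exon 4 to exon 5 printed above also sets Bcl11a-201 apart, so these bases are not the only source of counts, and no level per base was formed. The transcript with the most sequence of its own thus had the fewest counts. Whether the UCSC rows of the table have the exons of the GENCODE transcripts of the same name was not tested, so a count is read here as the count of a row and not as the abundance of a protein form. The row uc007ifv.2, which stands between the 4 in the table, had 0 counts in all 11 libraries. GENCODE also places 2 antisense genes, 4930538E20Rik and Gm12064, on the minus strand within Bcl11a. The library kit keeps strand, but the strand setting of the counting is not given in the sources used here.

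The libraries held 22074914 to 29549339 counted reads. Reads outside transcripts made up between 9.97% and 27.6% of a library, with the highest shares in NSD 2 (27.6%) and SD 1 (21.1%). In NSD 2, 12.3% of the reads had no unique alignment. Levels are given as CPM, the counts relative to the size of the library, scaled by upper-quartile factors.

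The order of the 4 rows by counts was the same in 11 of 11 libraries: Bcl11a-203, Bcl11a-204, Bcl11a-201 and then Bcl11a-202. Counts of Bcl11a-203 were between 2.91 and 6.38 times those of Bcl11a-204, which in turn were between 2.02 and 5.35 times those of Bcl11a-201. Counts of Bcl11a-201 were between 1.52 and 4.62 times those of Bcl11a-202, the lowest in SD 4 and the highest in NSD B. No neighbours in this order overlapped within a library. Among the transcripts tested, 92.8% had a lower mean CPM than Bcl11a-203, 83.3% than Bcl11a-204, 76.0% than Bcl11a-201 and 64.1% than Bcl11a-202.

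Bcl11a-203, the row with the most reads, encodes a short form that ends soon after exon 4. It had 87.9, 101.9, 81.8, 109.4 and 100.6 CPM in NSD 2, 3, 4, 5 and B. In the SD libraries it ranged from 74.4 CPM in SD 1 over a median of 92.4 to 99.7 CPM in SD 4. The groups overlap, and 2 of 6 SD libraries lie below the lowest NSD library. NSD libraries averaged 96.3 ± 11.2 CPM and SD libraries 89.5 ± 9.70 CPM (mean ± SD, n = 5 and n = 6), and the log2 fold change was -0.11 with a standard error of 0.0986.

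Bcl11a-204, the short form with the later start, had 24.0, 18.0, 23.1, 20.9 and 23.3 CPM in NSD 2, 3, 4, 5 and B. In the SD libraries it ranged from 14.8 CPM in SD 2 over a median of 19.2 to 25.6 CPM in SD 1, which is above every NSD library. The values of SD 2, SD 4 and SD 6 lie below the lowest NSD library, so the SD values enclose the NSD range. NSD libraries averaged 21.9 ± 2.43 CPM and SD libraries 19.4 ± 4.26 CPM (mean ± SD, n = 5 and n = 6), and the log2 fold change was -0.17 with a standard error of 0.132.

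Bcl11a-201, the row by which the gene was chosen, encodes a long form with part of the zinc fingers. It had 8.11, 8.51, 8.46, 10.3 and 9.62 CPM in NSD 2, 3, 4, 5 and B, from 196, 197, 218, 247 and 231 counts. In SD 1, 2, 3, 4, 6 and D it had 4.79, 6.13, 5.52, 5.98, 7.74 and 8.34 CPM, from 141, 145, 143, 149, 216 and 232 counts. SD 1 to 4 stand well below the NSD range, SD 6 lies just below it, and SD D lies inside it, above NSD 2. NSD libraries averaged 9.01 ± 0.938 CPM and SD libraries 6.42 ± 1.35 CPM (mean ± SD, n = 5 and n = 6), a difference of -28.8%. The log2 fold change was -0.49 (standard error 0.143), the furthest from 0 of the 4 rows.

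Bcl11a-202, the longest form with the full set of fingers, had 2.11, 3.03, 1.98, 3.06 and 2.08 CPM in NSD 2, 3, 4, 5 and B. In the SD libraries it ranged from 1.56 CPM in SD 1 over a median of 2.19 to 3.94 CPM in SD 4. With 46 to 98 counts in a library it is the least precise of the 4, and the SD values enclose the NSD range. NSD libraries averaged 2.45 ± 0.542 CPM and SD libraries 2.52 ± 0.876 CPM (mean ± SD, n = 5 and n = 6), and the log2 fold change was 0.03 with a standard error of 0.227.

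The sum of the 4 rows was 122.1, 131.4, 115.3, 143.8 and 135.6 CPM in NSD 2, 3, 4, 5 and B, and ranged from 106.4 CPM in SD 1 over a median of 119.5 to 125.6 CPM in SD D. The groups overlap, with 2 of 6 SD libraries below the lowest NSD library and 3 of 5 NSD libraries above the highest SD library. NSD libraries averaged 129.6 ± 11.2 CPM and SD libraries 117.8 ± 8.21 CPM (mean ± SD, n = 5 and n = 6), and the log2 fold change was -0.14 with a standard error of 0.0861. The median over the 4 rows was -0.14, beside 0.0086 over all 29599 transcripts tested. In such pooled tissue, fewer cells that use the gene and less of its ribosome-bound RNA per cell cannot be told apart.

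**Figure D2:**
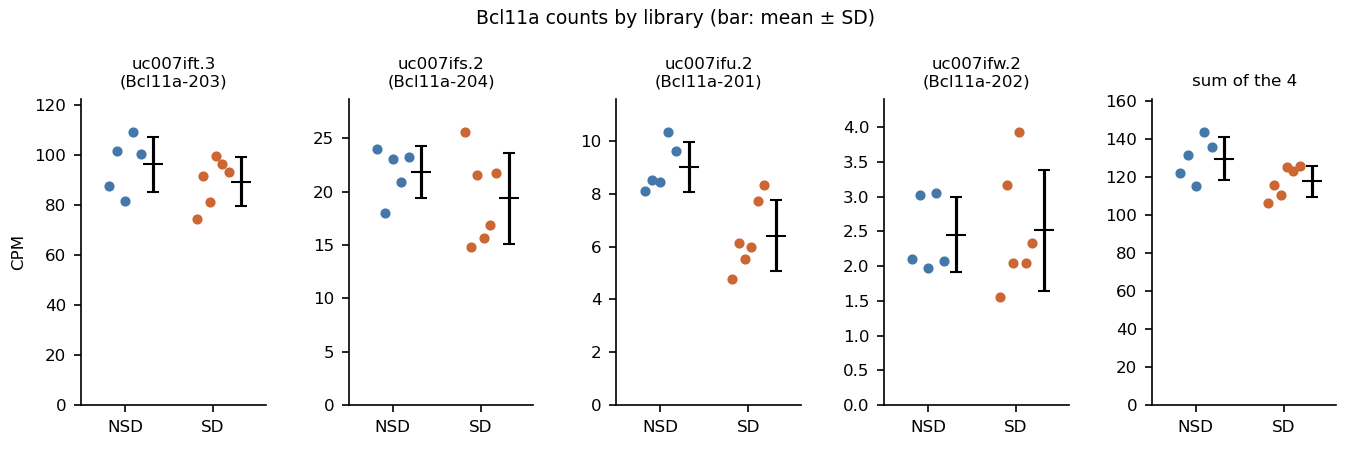
CPM of each Bcl11a row and of their sum in every library, 1 point a library, with bars for the group mean and SD (NSD blue, n = 5, SD orange, n = 6). The 6 SD points of Bcl11a-201 lie between 4.79 and 8.34 CPM against 8.11 to 10.3 CPM in NSD, and in every panel the groups overlap.

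By edgeR's quasi-likelihood test, 0 of the 4 rows passed an FDR of 0.05, where 0.0507% of all transcripts tested did, and 1 of 4 (Bcl11a-201) had an unadjusted p below 0.05, beside 4.45% of all. By DESeq2, 1 of the 4 (Bcl11a-201) passed, beside 0.456% of all transcripts. With the share of reads outside transcripts as a covariate, added after the data were seen, edgeR passed 1 of 4, again Bcl11a-201, beside 0.564% of all. The CPM of the groups did not overlap in 0 of the 4, beside 0.821% of all. Because the same contrast chose the gene, nothing is read from these counts.

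The makeup of the gene's reads was described by the share of each row in the sum of the 4 counts, with 95% Wilson intervals that cover counting error only. The median width of these intervals was 3.00 percentage points for Bcl11a-203, 2.51 for Bcl11a-204, 1.68 for Bcl11a-201 and 0.948 for Bcl11a-202. Bcl11a-203 made up 72.0%, 77.5%, 70.9%, 76.1% and 74.2% of the sum in NSD 2, 3, 4, 5 and B, and in SD between 70.0% (SD 1) and 79.6% (SD 4) around a median of 76.3%. Bcl11a-204 made up 19.7%, 13.7%, 20.0%, 14.6% and 17.2% in the same NSD libraries, and between 12.5% (SD 4) and 24.1% (SD 1) in SD, with a median of 15.5%. Within both groups the share of Bcl11a-204 was high where that of Bcl11a-203 was low, and Bcl11a-203 stayed above it in 11 of 11 libraries. The means were 74.1 ± 2.75% and 75.8 ± 3.85% for Bcl11a-203 and 17.0 ± 2.87% and 16.6 ± 4.59% for Bcl11a-204 (NSD and SD group, SD, n = 5 and n = 6). The difference for Bcl11a-204, -0.37 percentage points, kept its sign in 10 of 15 alternatives and ran from -2.85 to 0.46, turning positive without NSD 2, NSD 4, SD 2, SD 4 or SD 6, so its direction is not set by these data. That of Bcl11a-203 was 1.67 points and ran from 0.87 to 3.98.

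The share of Bcl11a-201 was 6.64%, 6.48%, 7.33%, 7.20% and 7.09% in NSD 2, 3, 4, 5 and B. In the SD libraries it was 4.50% in SD 1, 5.30% in SD 2, 5% in SD 3, 4.78% in SD 4, 6.28% in SD 6 and 6.64% in SD D. Only SD D reaches the NSD range. The means were 6.95 ± 0.369% (SD, n = 5) and 5.42 ± 0.857% (SD, n = 6), a difference of -1.53 percentage points. Set against Bcl11a-203 alone, counts of Bcl11a-201 were between 8.36% and 10.3% of it in NSD (median 9.46%) and between 6.0% and 8.95% in SD (median 6.75%). The share of Bcl11a-202 was between 1.54% and 2.30% in NSD and between 1.47% and 3.14% in SD.

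**Figure D3:**
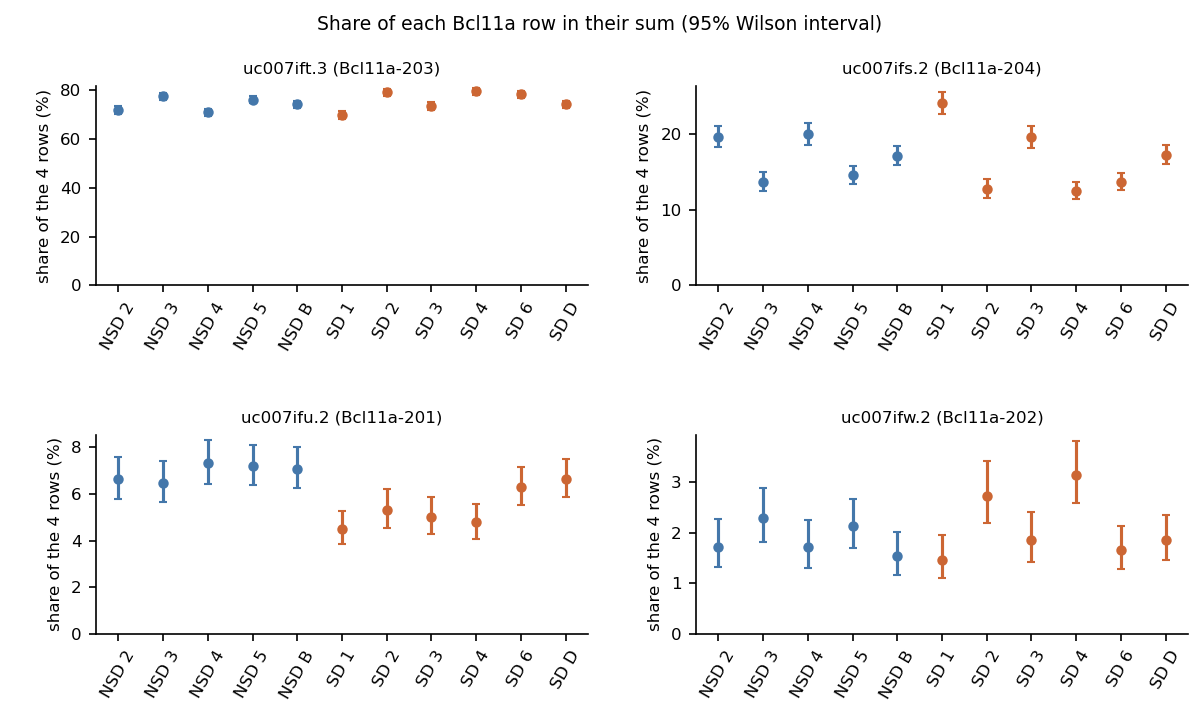
Share of each row in the sum of the 4 Bcl11a counts, in percent, for each library, with 95% Wilson intervals as bars (NSD blue, SD orange). For Bcl11a-201, 5 SD libraries lie at or below 6.28% and SD D at 6.64%, beside 6.48% to 7.33% in NSD, while the shares of Bcl11a-203 and Bcl11a-204 vary widely in both groups.

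The spread between libraries was set beside counting error, without a test. Counting alone would give a coefficient of variation of 7.21% for Bcl11a-201, 2.06% for Bcl11a-203, 4.36% for Bcl11a-204 and 12.6% for Bcl11a-202. The observed values were 10.4%, 11.6%, 11.1% and 22.1% in NSD. They were 21.1%, 10.8%, 22.0% and 34.8% in SD, in the same order. Bcl11a-201, Bcl11a-204 and Bcl11a-202 thus varied more among SD than among NSD libraries, a difference that was not tested.

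How the rows move together within the groups was not used to choose the gene and could be tested. Deviations of log2 CPM from the group means were correlated over the 11 libraries, with two-sided permutation tests within groups and Benjamini-Hochberg adjustment over the 6 pairs. Bcl11a-203 varied with Bcl11a-202 (Pearson r = 0.74, permutation p = 0.0132, adjusted 0.0349; Spearman rho = 0.65, adjusted p = 0.128). Bcl11a-203 also varied with Bcl11a-201 (r = 0.69, permutation p = 0.0212, adjusted 0.0349, and rho = 0.70, adjusted p = 0.128). Bcl11a-204 went the other way, against Bcl11a-202 (r = -0.83, permutation p = 0.00461, adjusted 0.0277, and rho = -0.65, adjusted p = 0.128) and against Bcl11a-203 (r = -0.69, permutation p = 0.0233, adjusted 0.0349, and rho = -0.59, adjusted p = 0.128). Such values are common in these libraries, since the median r over 14535 transcripts was 0.59 with Bcl11a-203, 0.54 with Bcl11a-202, 0.34 with Bcl11a-201 and -0.55 with Bcl11a-204. The ranks passed the threshold in none of these 4 pairs, and Pearson's r passed in all 4. Bcl11a-201 did not vary detectably with Bcl11a-204 (r = -0.27, rho = -0.31, adjusted permutation p = 0.587 and 0.427) or with Bcl11a-202 (r = 0.23, rho = 0.39, adjusted permutation p = 0.587 and 0.364). Without SD 6 and SD D, the libraries farthest from the median of Bcl11a-201, r was -0.62 with Bcl11a-204 and 0.70 with Bcl11a-202 (adjusted permutation p = 0.142 and 0.113), so the size of both values depends on those libraries. For the 4 pairs that passed by r, without the 2 libraries farthest from the median, r was 0.60 for Bcl11a-203 with Bcl11a-202, 0.83 for Bcl11a-203 with Bcl11a-201, -0.68 for Bcl11a-204 with Bcl11a-202 and -0.56 for Bcl11a-203 with Bcl11a-204. The adjusted permutation p was then 0.142, 0.0979, 0.113 and 0.143, so none of the 4 pairs passed with the 9 libraries left. With TMM factors r was 0.61, 0.53, -0.81 and -0.67 in the same order, and the adjusted permutation p of 0.107, 0.143, 0.0485 and 0.0953 left 1 of the 4, Bcl11a-204 with Bcl11a-202.

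The same deviations followed the share of reads outside transcripts. Bcl11a-204 was higher in libraries with more such reads (r = 0.73, permutation p = 0.00353, adjusted 0.0280 over 10 relations, and rho = 0.76, adjusted p = 0.0104), with r = 0.70 within NSD and 0.93 within SD. The others were lower there: Bcl11a-203 with r = -0.79 (rho = -0.85, adjusted permutation p = 0.0280 and 0.0104), Bcl11a-202 with r = -0.68 (rho = -0.69, adjusted permutation p = 0.0280 and 0.0328) and the sum with r = -0.69 (rho = -0.67, adjusted permutation p = 0.0414 and 0.0455). With TMM factors these 3 no longer passed, with r = -0.70 for Bcl11a-203 and -0.62 for Bcl11a-202 (adjusted permutation p = 0.0655 for both) and -0.34 for the sum (adjusted permutation p = 0.416), and Bcl11a-204 had r = 0.78 (adjusted permutation p = 0.0046). For Bcl11a-201, r was -0.51 and rho -0.57, with adjusted permutation p = 0.0668 and 0.0592. Without NSD 2 and SD 1, the libraries with most such reads, r was 0.83 for Bcl11a-204, -0.88 for Bcl11a-203, -0.79 for Bcl11a-202, -0.70 for the sum and -0.21 for Bcl11a-201. Of these, Bcl11a-202 and the sum no longer passed (adjusted permutation p = 0.0526 and 0.0679). Over 14535 transcripts with a mean of at least 1 CPM the median r with this share was -0.53, 30.7% had a positive r, and 14.2% had an r at or above that of Bcl11a-204. An r at or below that of Bcl11a-203 was found in 22.4% of them, that of Bcl11a-202 in 37.9% and that of Bcl11a-201 in 51.0%. The tally of ambiguous reads gave the opposite signs, with r = -0.61 for Bcl11a-204, 0.70 for Bcl11a-203, 0.57 for Bcl11a-202, 0.48 for Bcl11a-201 and 0.63 for the sum (rho = -0.65, 0.88, 0.60, 0.59 and 0.73, adjusted permutation p of r = 0.0280, 0.0280, 0.0414, 0.0593 and 0.0593, and of rho = 0.0209, 0.0059, 0.0455, 0.0455 and 0.0328). Bcl11a-201 and the sum thus passed by rank and not by r.

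The shares of the rows, tested after the data were seen, showed the same relation. The share of Bcl11a-204 rose with the share of reads outside transcripts (r = 0.82, rho = 0.82, adjusted permutation p = 0.00064 and 0.00416 over 4 relations), with r = 0.80 within NSD, 0.996 within SD, and 0.985 without NSD 2 and SD 1. The share of Bcl11a-203 had r = -0.80 and rho = -0.84 (adjusted permutation p = 0.00176 and 0.00416), which is no separate result, because the shares add up to the whole and these rows make up most of it. The share of Bcl11a-201 did not follow it detectably (r = -0.27, rho = -0.09, adjusted permutation p = 0.368 and 0.782). The share of Bcl11a-202 had r = -0.55 and rho = -0.57 (adjusted permutation p = 0.0584 and 0.0693).

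**Figure D4:**
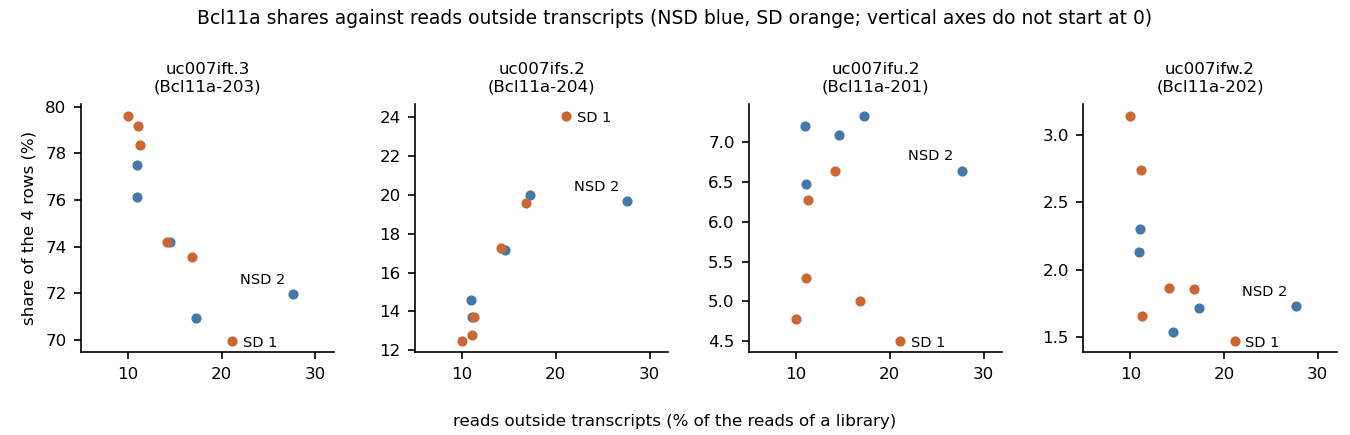
Share of each row in the sum of the 4 Bcl11a counts, in percent, against the share of reads outside transcripts, in percent, 1 point a library (NSD blue, SD orange). Bcl11a-204 rises from 12.5% of the sum in SD 4, at 9.97% of reads outside transcripts, to 24.1% in SD 1, at 21.1%, and is 19.7% in NSD 2, at 27.6%, while Bcl11a-203 runs the other way.

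Partners of Bcl11a were looked up in lists of the BAF complex and of the NuRD and LSD1 corepressors. Only 2257 rows of the table could be given a name, through statistics that the study lists mostly for transcripts with small p-values, so most members have no value here and the named ones are not a fair sample. Of the 27 BAF genes, 4 besides Bcl11a could be named, with 2 rows higher and 2 lower in SD. By edgeR and by DESeq2, 0 of the 4 passed the FDR threshold (0.0507% and 0.456% of all transcripts), and 1 had an unadjusted p below 0.05 in edgeR (4.45% of all). The paralog Bcl11b (uc007ozh.1) had in the 5 NSD libraries 20.8 ± 3.54 CPM (SD) and in the 6 SD libraries 18.2 ± 2.23 CPM (SD), and the log2 fold change was -0.19 with a standard error of 0.117. Smarcd1, a core subunit, had a log2 fold change of -0.09 (standard error 0.0905). Bcl7b, an accessory subunit, had 0.22 (standard error 0.0937), and Ss18, another one, 0.32 (standard error 0.289). Of the 16 corepressor genes, 2 could be named. Mta3, a NuRD subunit, had a log2 fold change of 0.16 (standard error 0.0787), and Kdm1a, the demethylase LSD1, one of -0.17 (standard error 0.108). Of these, 0 of 2 passed in either tool and 0 had an unadjusted p below 0.05 in edgeR.

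Bcl11a is also used by GABAergic interneurons, so markers of other cells were set beside it. Of 14 GABAergic genes 5 could be named, through 7 rows, and all 7 were lower in SD. By edgeR 0 of 7 passed the FDR threshold (0.0507% of all transcripts) and 6 had an unadjusted p below 0.05 (4.45% of all), and by DESeq2 0 passed (0.456% of all), where 3 rows had no adjusted p. Their summed level was 65.4, 106.9, 158.8, 94.7 and 182.7 CPM in NSD 2, 3, 4, 5 and B, and ranged from 53.4 over a median of 64.2 to 111.2 CPM in SD. No named row of the list is at 0. Within the groups this sum did not follow any of the 4 rows or their sum detectably, as tested after the data were seen. Pearson's r lay between -0.22 for Bcl11a-204 and 0.21 for Bcl11a-201, the smallest adjusted permutation p was 0.958 for r, and rho lay between -0.28 and 0.44 for the same rows (smallest adjusted permutation p = 0.936 over 5 relations). Of 5 septal or other region markers 4 could be named, all 4 lower in SD. By edgeR 0 of 4 passed (0.0507% of all), with 4 at an unadjusted p below 0.05 (4.45% of all), and by DESeq2 2 of the 3 with an adjusted p passed, Zic1 and Zic5 (0.456% of all), where Avpr1a had none. The rows of these lists could be named mostly because their p-values are small, so nothing is read from these counts. Their summed level was 5.67 to 31.2 CPM in NSD and 3.15 to 11.9 CPM in SD. The part of these cells in the Bcl11a values of the SD and NSD groups was not tested.

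Of 9 markers of excitatory neurons, 3 could be named. Neurod2, a transcription factor of these cells, had in the 5 NSD libraries 336.0 ± 37.7 CPM (SD) and in the 6 SD libraries 385.0 ± 63.1 CPM (SD), and Emx1, another one, had 29.1 ± 3.39 and 26.1 ± 2.71 CPM. The named row of Camk2a, the gene whose promoter drives the Cre, had 2.51 ± 0.167 and 1.89 ± 0.340 CPM, and is 1 row of a gene with several. By edgeR and DESeq2, 0 of the 3 passed (0.0507% and 0.456% of all), and 1 had an unadjusted p below 0.05 in edgeR (4.45% of all). Of 4 oligodendrocyte markers, 1 row of Mbp could be named, with 180.3 ± 12.4 and 208.5 ± 19.6 CPM (0 of 1 passed in either tool, unadjusted p below 0.05 in 1 of 1). None of the 4 astrocyte and 4 microglia markers could be named.

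The transcripts whose deviations from the group means were most like those of the Bcl11a sum were found among 1903 named ones of the 14535 compared, over 11 libraries. They were Tanc2 (r = 0.98), Dock3 (r = 0.98), 2210408I21Rik (r = 0.98), Cyp4x1 (r = 0.97) and Anks1b (r = 0.97), where 95% of the transcripts had an r below 0.88. Tanc2 and Anks1b encode proteins of the postsynaptic density, and Dock3 a neuronal exchange factor for Rac. For Bcl11a-201 they were Lzts1 (r = 0.93), Lmna (r = 0.92), Mical3 (r = 0.91), Setd1b (r = 0.90) and 4922501L14Rik (r = 0.87), where 95% had an r below 0.73. Lzts1 encodes a postsynaptic protein, Lmna the nuclear lamin A and C, and Setd1b a histone methyltransferase. The lists of the row that chose the gene and of the sum share no name. All points share their libraries and depth, so these values are a description.

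The SD to NSD difference of each row was then followed over the processing. For Bcl11a-201 the log2 fold change was negative in 21 of 21 alternatives, between -0.58 without SD D and -0.43 without SD 1. Bcl11a-203 (-0.17 to -0.05), Bcl11a-204 (-0.39 to -0.11) and the sum (-0.19 to -0.10) also kept their sign in 21 of 21. Their main values of -0.11, -0.17 and -0.14 had standard errors of 0.0986, 0.132 and 0.0861. Bcl11a-202 kept its sign in 13 of 21, between -0.14 and 0.30, so its direction is not set by these data. All alternatives reuse these libraries, so a kept sign does not set the direction of the other rows or of the sum.

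**Figure D5:**
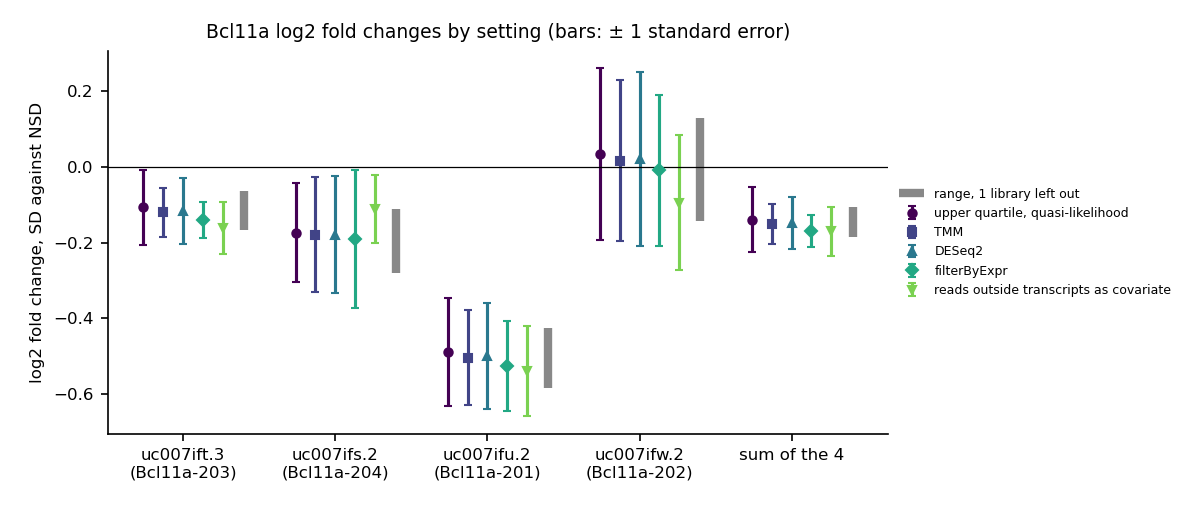
Log2 fold change (SD against NSD) of each row and of the sum with upper-quartile factors, with TMM factors, by DESeq2, with edgeR's own expression filter and with reads outside transcripts as a covariate, as points with standard errors, and the range with 1 library left out as a grey bar. The bar of Bcl11a-201 runs from -0.58 to -0.43, and that of Bcl11a-202 lies on both sides of 0.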

How the data were processed

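TRAP-Seq libraries (5 NSD and 6 SD) were grouped by their labels. The authors trimmed the reads with Trimmomatic 0.36, aligned them to mm10 with STAR 2.7.5 and counted them with HTSeq in intersection-nonempty mode, in which a read that cannot be assigned to 1 transcript alone is not counted on any. The deposited values are raw counts of UCSC transcripts, and the version of that annotation is not given in the sources used here. The 5 tallies of uncounted reads were left out of the tests.

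Counts were analysed with edgeR 4.0.16 in R 4.3.3 (at least 1 count in at least 5 libraries, upper-quartile factors, two-sided quasi-likelihood test, Benjamini-Hochberg FDR 0.05, prior count of 2 for log2 CPM). The sum of the 4 rows was fitted as 1 feature in their place. Where nothing says that libraries are separate experiments, p-values measure the spread between these libraries only. Correlations used permutation tests within groups with 100000 resamples (scipy 1.17.1 in Python 3.11.15). Figures were drawn with matplotlib 3.10.9.

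The members, lists and tests were chosen with earlier results of these data known. Named genes are the 4 rows, the row between them, Bcl11b, nameable members of the partner and marker lists, and the 5 nameable transcripts most like the sum and Bcl11a-201. Names came from the statistics of the study's tables, where 2401 of 2405 listed transcripts matched exactly 1 row. For naming only, a separate edgeR fit was run with edgeR's own expression filter, TMM factors and a likelihood ratio test. It kept the tallies of uncounted reads among the rows, and so differs from the main fit. Replicate numbers 2, 3 and 4 occur in both groups. The deviations of libraries with the same number correlated at -0.59, -0.64 and -0.71 across transcripts, and the main fit did not pair libraries by number. Reads outside transcripts differed within each number: 27.6% and 11.1% for 2, 11.0% and 16.8% for 3, and 17.3% and 9.97% for 4 (NSD and SD). The correlations therefore cannot settle whether a number marks a shared batch. Zinc finger matches are C, 2 to 4 residues, C, 12 residues, H, 3 to 5 residues, H. Alternatives were TMM factors, DESeq2 1.42.0, other filters, the label series, the replicate block, each library left out, and the share of reads outside transcripts.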

Additional observations from a re-analysis of the deposited data

Results flagged for a closer look

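In 24 groups of library values tested for a library that stands apart, 2 flags were raised, both in NSD 2, and chance flags about 1 in 20 groups. In NSD 2, 37.2% of the reads were ambiguous between transcripts, where the other NSD libraries had 47.6% to 51.7%. In the same library 12.3% of the reads had no unique alignment, where the other NSD libraries had 5.90% to 6.09%. The Bcl11a values of NSD 2 (8.11 CPM for Bcl11a-201 and 24.0 CPM for Bcl11a-204) are the lowest and the highest of the NSD group. Without NSD 2 the log2 fold change of Bcl11a-201 was -0.53. The part of these reads in the Bcl11a values was not tested.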

How the results depend on the processing

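The number of transcripts past FDR 0.05, which was 15 in edgeR's quasi-likelihood test, was 62 with TMM factors, 135 by DESeq2, 33 with no filter, 191 with edgeR's own expression filter and 8 with the label series as a covariate. It was 0 with the numbered libraries only (894 at an unadjusted p below 0.05), 167 with the share of reads outside transcripts as a covariate and 57 without the 2 libraries richest in such reads, both added after the data were seen. With 1 library left out it ranged from 0 (without SD D, 1178 at an unadjusted p below 0.05) to 78 (without SD 1), with 1 without NSD B, 2 without NSD 4, 6 without SD 6 and 8 without SD 3. With the replicate block over the 6 libraries with shared numbers, edgeR called 0 (467 at an unadjusted p below 0.05), and 2 in the same 6 libraries without the block. Under the block the log2 fold change of Bcl11a-201 was -0.57.

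All 105 log2 fold changes and all 60 share differences under the alternatives moved by less than 1 SD between libraries, although the share difference of Bcl11a-204 changed sign in 5 of 15. Leaving out 1 library cannot move a difference of share means that far, and can hardly move a log2 fold change so. For those alternatives the outcome was fixed beforehand or nearly so, and nothing is read from it. Adding the row between the 4 to the sum is not counted here, since it holds 0 counts and leaves each share as it was. The row of Bcl11a-201 passed FDR 0.05 by DESeq2 and with the covariate, and in none of the other 19 alternatives. Of 63 correlations under alternatives, 48 kept their side of the threshold. These 48 include all relations that had not passed at first, and all reruns with a prior count of 0.5, which hardly changed any value. Most relations that had passed lost the threshold with TMM factors. Most also lost it without the 2 libraries farthest from the median. The 15 losses of the adjusted threshold kept the same sign. With TMM factors these were Bcl11a-201 with Bcl11a-203 (0.53), Bcl11a-203 with Bcl11a-202 (0.61) and Bcl11a-203 with Bcl11a-204 (-0.67), Bcl11a-202, Bcl11a-203 and the sum with reads outside transcripts (-0.62, -0.70 and -0.34), and Bcl11a-202 and Bcl11a-203 with ambiguous reads (0.51 and 0.62). Without the 2 libraries farthest from the median they were Bcl11a-201 with Bcl11a-203 (0.83), Bcl11a-203 with Bcl11a-202 (0.60) and with Bcl11a-204 (-0.56), Bcl11a-204 with Bcl11a-202 (-0.68), Bcl11a-202 and the sum with reads outside transcripts (-0.79 and -0.70), and Bcl11a-202 with ambiguous reads (0.76). Fewer libraries are compared in the latter, and the cause of the former was not tested. For Bcl11a-202, with 46 to 98 counts a library, counting gives a coefficient of variation of 12.6%, beside 22.1% observed in NSD and 34.8% in SD.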
